A study of Homo sapiens with 20 samples.

Results

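The 59 genes described here are the enzymes that write, erase or read chemical marks on RNA, other than NAT10 itself, together with THUMPD1, the partner protein of NAT10 in tRNA acetylation. They were taken by name from a list and not by a cut on their values, though earlier results of these data were known. All 59 were found among the 60616 gene identifiers of the RNA-seq table and the 20401 of the ribosome profiling table. NAT10 makes N4-acetylcytidine (ac4C) in tRNA and rRNA, and it has been described as an acetyltransferase of mRNA. RNA carries many other marks, and most of the 59 genes work on tRNA, where marks in the anticodon loop tune decoding and marks elsewhere keep the molecule folded and stable. N6-methyladenosine (m6A) is the main internal mark of mRNA, set by a METTL3-METTL14 complex, removed by FTO and ALKBH5 and bound by YTH-domain proteins.

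The study compared K562 cells, a human leukaemia line with erythroid potential, in which exon 5 of NAT10 had been deleted with CRISPR-Cas9 (knockout) with the parental line (wild type), to ask how NAT10 bears on erythroid differentiation. Both were grown in the same medium, and no group received a drug apart from the cycloheximide used to hold ribosomes for ribosome profiling (Ribo-seq). RNA-seq and Ribo-seq had 2 libraries per genotype, and an ac4C antibody and an IgG control were each used for immunoprecipitation (acRIP-seq) in both genotypes. The labels do not say whether the knockout cells are 1 clone or whether replicate libraries came from different cultures. Every p-value here therefore speaks of the scatter among these libraries, which could be technical. In bulk samples such as these, fewer cells of a type and less RNA per cell cannot be told apart.

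RNA-seq libraries held 10388717 to 18778485 counts and Ribo-seq libraries 621287 to 1220308, of which the 59 genes took 0.359% to 0.393% and 0.403% to 0.447%. In RNA-seq the spread within the knockout pair was 2.99% above sampling noise, against 12.5 times sampling noise within the wild type pair, so the knockout pair was added up and used as 1 sample. NAT10 was lower in every knockout library, at 49.9 and 49.3 CPM (counts scaled to the same library total) against 139 and 144 in RNA-seq and at 55.4 and 48.3 against 176 and 188 in Ribo-seq. Its log2 fold changes, knockout minus wild type, were -1.51 (SE 0.085) and -1.82 (SE 0.19), which leaves 0.351 and 0.283 of the wild type level. Counts are per gene and do not show exon 5 by itself, and the series text calls the cells both knockout and knockdown derivatives, so how much intact NAT10 remained was not tested. Of 12 erythroid markers 11 were above 1 CPM in every RNA-seq library, with a summed level of 1670 and 1640 CPM in knockout against 1340 and 1320 in wild type. The sum hides genes that went the other way. Of the 12, 8 had an RNA log2 fold change above 0, with values from -0.42 (GATA1) to 2.12 (HBA2). Summed markers of other cell types were lower in knockout. The 6 megakaryocyte markers summed to 9.4 and 9.75 CPM against 27.1 and 23.9, with GP9, PF4 and PPBP at 0. Only 1 of these 6 reached 1 CPM in every library, and 3 of 6 did so in each of the lists that follow. The 6 granulocyte and monocyte markers summed to 33.9 and 32.2 CPM against 75.9 and 70.5. The 6 lymphocyte markers summed to 31 and 28.4 CPM against 42.3 and 40.2, with MS4A1 at 0, and 6 fibroblast and epithelial markers to 185 and 189 against 247 and 241. The part of these shifts in the results below was not tested.

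Of the enzymes, 6 passed the test in RNA, ALKBH5, ADAT1, ELP6 and CTU2 upward and ELP4 and ELP2 downward, and 1 of them, ELP4, also passed in ribosome footprints. The sequences before their transcription starts are shown so that the promoters of genes that went opposite ways, among them ELP4 and ELP6 of 1 complex, can be set side by side. They are RefSeq sequences of GRCh38.p14, written along the strand of the gene and ending at its start, with the 250 bases before it for 4 genes, and 144 for ELP4 and 94 for CTU2, where another gene begins. Capitals mark matches on either strand to 5 short motifs, which do not overlap each other here.
ALKBH5, chr17:18183578-18183827, plus strand: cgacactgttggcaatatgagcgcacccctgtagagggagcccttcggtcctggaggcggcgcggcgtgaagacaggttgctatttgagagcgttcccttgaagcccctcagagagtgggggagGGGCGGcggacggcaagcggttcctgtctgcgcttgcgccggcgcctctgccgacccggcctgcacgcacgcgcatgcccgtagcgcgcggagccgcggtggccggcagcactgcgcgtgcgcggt
ADAT1, chr16:75623282-75623531, minus strand: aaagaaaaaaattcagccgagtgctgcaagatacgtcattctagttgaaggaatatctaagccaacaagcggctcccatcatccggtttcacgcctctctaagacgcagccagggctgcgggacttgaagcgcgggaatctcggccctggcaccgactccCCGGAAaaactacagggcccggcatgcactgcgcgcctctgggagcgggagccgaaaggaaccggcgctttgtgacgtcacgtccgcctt
ELP6, chr3:47513713-47513962, minus strand: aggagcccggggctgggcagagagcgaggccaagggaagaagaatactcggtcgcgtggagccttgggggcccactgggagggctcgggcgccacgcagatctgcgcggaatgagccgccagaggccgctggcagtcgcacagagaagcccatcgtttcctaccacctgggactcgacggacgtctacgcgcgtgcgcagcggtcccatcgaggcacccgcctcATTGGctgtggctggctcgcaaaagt
CTU2, chr16:88706409-88706502, plus strand: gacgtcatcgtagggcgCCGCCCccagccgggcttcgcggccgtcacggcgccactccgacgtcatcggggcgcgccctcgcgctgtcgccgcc
ELP4, chr11:31509623-31509766, plus strand: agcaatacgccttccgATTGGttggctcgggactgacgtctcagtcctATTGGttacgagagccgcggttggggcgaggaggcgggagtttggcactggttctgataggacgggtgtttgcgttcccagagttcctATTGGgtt
ELP2, chr18:36129649-36129898, plus strand: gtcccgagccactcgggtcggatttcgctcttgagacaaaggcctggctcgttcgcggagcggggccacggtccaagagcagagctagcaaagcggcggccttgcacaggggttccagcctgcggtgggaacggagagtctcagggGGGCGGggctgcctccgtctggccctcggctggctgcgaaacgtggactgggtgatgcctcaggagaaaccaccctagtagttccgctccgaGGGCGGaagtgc
ELP4 had 3 matches to the CCAAT box, all read on the opposite strand as ATTGG, in a window where 23% of 35116 RefSeq promoters have at least 1. ELP6 had 1 such match, in a window where 32% of promoters have one. It has 3 listed starts, and the stretch before 1 of them is shown. The GC box was searched as GGGCGG. ALKBH5 had 1 GC box and ELP2 had 2, against 42.6% of promoters with at least 1, and CTU2 had 1, against 30.4% in the shorter window. The ETS core was searched as CCGGAA. ADAT1 had 1, found in 14.5% of promoters. The E-box, searched as CACGTG, is found in 6.34% of promoters and was in none of the 6 stretches. The GATA site, searched as AGATAA and found in 9.17%, was in none of them either. Among the 51 genes of the list that the promoter table holds, 24 had an ETS core within 250 bases (14.5% of all promoters) and 34 a GC box (42.6%). A CCAAT box was in 22 (32%), an E-box in 5 (6.34%) and a GATA site in 4 (9.17%), and no test was made. A match describes letters and is not a binding site.

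In RNA, 4 of 59 genes rose and 2 fell, which is 10.2% of them, against 14% of all 16277 tested genes (5.17% higher and 8.79% lower). That share lies below the one for all genes, so the number of changes is not a result about these enzymes. The median log2 fold change was 0.10 for the 59 genes and -0.00 for all genes, and 45 of 59 lay above 0, against 49.9% of all genes. At an unadjusted p under 0.05 there were 12 of the 59, or 20.3%, against 28.9% of all genes. Fold changes were small, from -0.73 for ELP4 to 0.53 for ADAT1. Both knockout libraries lay above both wild type libraries for 34 of the 59 genes and below them for 11, compared with 33.1% and 34.1% of all tested genes. The edgeR quasi-likelihood test on 1 knockout sample and 2 wild type libraries had 1 residual degree of freedom. On simulated data of this design it recovered 14% of genes changed by 0.5 on the log2 scale and 80% of those changed by 1. The simulation changed 100 of 14469 genes at each size, fewer than were called in the data. Its recovery therefore does not carry over, and how many changes of the size seen here were missed was not tested. DESeq2 on the same libraries called only ALKBH5 and ELP4, with adjusted p values of 0.0614 for ADAT1, 0.0743 for ELP2, 0.0961 for ELP6 and 0.149 for CTU2.

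**Figure D1:**
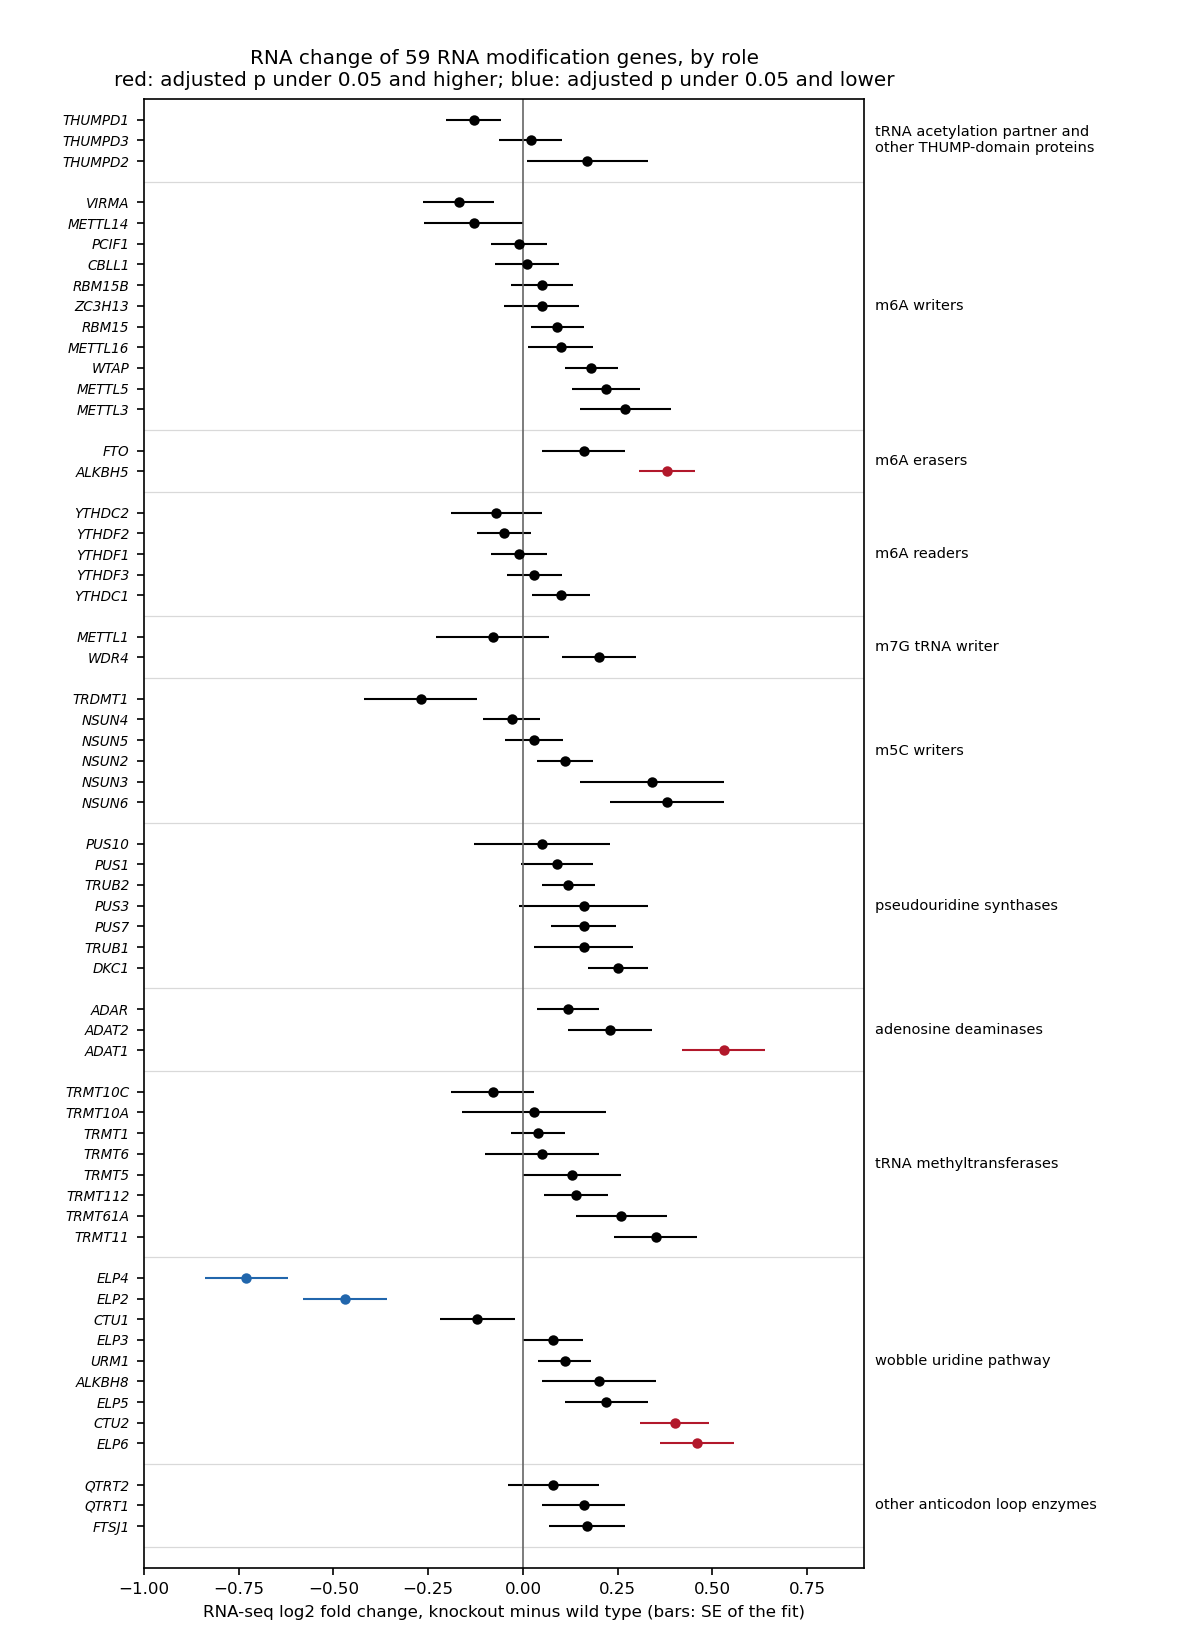
RNA-seq log2 fold change (knockout minus wild type, x axis) of each of the 59 genes, with the SE of the fit as a bar, grouped by role. ALKBH5, ADAT1, CTU2 and ELP6 in red and ELP2 and ELP4 in blue passed the test, and the other 53 points in black lie between -0.27 (TRDMT1) and 0.38 (NSUN6).

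THUMPD1, which binds tRNA and brings NAT10 to it for acetylation, stood at 139 and 145 CPM in the knockout RNA-seq libraries and at 157 and 155 in wild type. The knockout values lay below both wild type values. The log2 fold change was -0.13 (SE 0.073, edgeR adjusted p = 0.269), which did not pass the test. It passed with the knockout libraries kept apart (-0.14, edgeR adjusted p = 0.0376), over alternatives with an adjusted p from 0.000225 to 0.869. With those libraries kept apart, 5476 of all 16040 tested genes passed. Ribo-seq gave THUMPD1 66.5 and 56.3 CPM in knockout against 67.2 and 58.2 in wild type, which overlap, with a log2 fold change of -0.05 (SE 0.22). THUMPD1 overlaps ACSM3 in the RefSeq gene order, a gene at 552 CPM that fell by 0.67 on the log2 scale. Whether strand was used in counting was found in no label or header, so reads of the pair cannot be told apart. The same limit holds for other genes below that overlap an expressed gene. Among them are METTL5 with SSB (109 CPM), METTL3 with TOX4 (53.8 CPM) and ELP5 with CTDNEP1 (133 CPM). PUS3 overlaps HYLS1, which was at 7.52 CPM and stood at 1.00 on the log2 scale. The other THUMP-domain proteins, the methyltransferase subunits THUMPD2 and THUMPD3, had RNA log2 fold changes of 0.17 and 0.02, neither called.

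Of the 9 wobble uridine genes 2 were higher and 2 lower in RNA, against 5.17% and 8.79% of all tested genes. No test of the group was made, DESeq2 called only ELP4 of the 9, and ELP4 was lower together with the genes around it on its chromosome. Elongator is a complex of several subunits that starts the modification of uridine at the wobble position of tRNA anticodons. ALKBH8 then methylates it, and CTU1, CTU2 and the sulfur carrier URM1 add sulfur to it. ELP4, a subunit of the accessory ring of Elongator (ENSG00000109911.19, chromosome 11), had RNA levels of 28.2 and 29.3 CPM in knockout against 47.0 and 48.9 in wild type. Its footprints were 57.9 and 38.6 CPM in knockout against 102 and 92.2 in wild type, from 24 to 124 counts per library. Knockout libraries were below wild type in both assays with no overlap. ELP4 fell by 0.73 on the log2 scale in RNA (SE 0.11, edgeR adjusted p = 0.00475) and by 0.99 in footprints (SE 0.23, edgeR adjusted p = 0.0280), which puts knockout at 0.601 and 0.505 of wild type. The footprint call was lost without wild type replicate 1 (-0.91, edgeR adjusted p = 0.103) and with DESeq2 (-1.01, adjusted p = 0.171).

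ELP6, another subunit of the same ring (ENSG00000163832.16, chromosome 3), went the other way, at 58.0 and 59.3 CPM in knockout RNA against 42.1 and 43.5 in wild type. The log2 fold change was 0.46 (SE 0.098, edgeR adjusted p = 0.0207). Its footprints, 63.9 and 59.6 CPM against 53.3 and 46.1, also lay above wild type in both libraries but did not pass the test (0.28, SE 0.22). ELP5, the third ring subunit, was at 55.2 and 56.4 CPM in knockout RNA against 52.4 and 43.9 in wild type, and at 92.9 and 93.4 against 77.8 and 84.5 in footprints. Its libraries did not overlap in either assay, and its RNA log2 fold change of 0.22 (SE 0.11) did not pass.

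ELP2, a scaffold subunit of the Elongator core (ENSG00000134759.14, chromosome 18), was at 82.8 and 83.0 CPM in knockout RNA against 130 and 102 in wild type. The wild type libraries stood apart from each other, so the fold change was -0.61 against wild type replicate 1 and -0.32 against replicate 2, and -0.47 in the fit (SE 0.11, edgeR adjusted p = 0.0305). Ribo-seq gave ELP2 181 and 142 CPM in knockout against 175 and 149 in wild type, which overlap, with a log2 fold change of -0.03 (SE 0.18). ELP3, the catalytic subunit, had 76.5 and 77.9 CPM in knockout RNA against 72.2 and 73.9 in wild type, with footprints of 112 and 135 against 111 and 108. Its groups did not overlap, but the changes of 0.08 in RNA and 0.12 in footprints were within about 1 SE. The 5 Elongator genes of the list thus ranged from -0.73 to 0.46, with 2 lower, 1 higher and 2 that did not pass the test.

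CTU2, which with CTU1 forms the enzyme that thiolates wobble uridine (ENSG00000174177.13, chromosome 16), was at 65.3 and 58.0 CPM in knockout RNA against 47.2 and 46.4 in wild type. The groups did not overlap, and CTU2 rose by 0.40 (SE 0.090, edgeR adjusted p = 0.0247). Its footprints, 107 and 119 CPM against 83.6 and 110 in wild type, overlapped (0.20, SE 0.20). The knockout RNA libraries differed more for CTU2 than for the other called genes, and without knockout replicate 1 its change was 0.31 and the call was lost (edgeR adjusted p = 0.0664). CTU2 overlaps PIEZO1, a gene at 643 CPM that stood at -0.07, and their reads cannot be told apart without a strand setting. CTU1, the catalytic partner, was at 43.9 and 43.9 CPM in knockout RNA against 51.7 and 44.6 in wild type, and at 89.5 and 101 against 117 and 140 in footprints. Its libraries were lower in knockout in both assays, with log2 fold changes of -0.12 (SE 0.10) and -0.47 (SE 0.19), neither called. ALKBH8 was at 16.2 and 16.7 CPM in knockout RNA against 15.4 and 13.4 in wild type, and at 11.1 and 8.05 against 5.74 and 2.19 in footprints. These footprints, 2 to 13 counts per library, were too few to test, and the RNA change was 0.20 (SE 0.15). URM1 stood at 0.11 in RNA (SE 0.069) and -0.15 in footprints (SE 0.21).

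**Figure D2:**
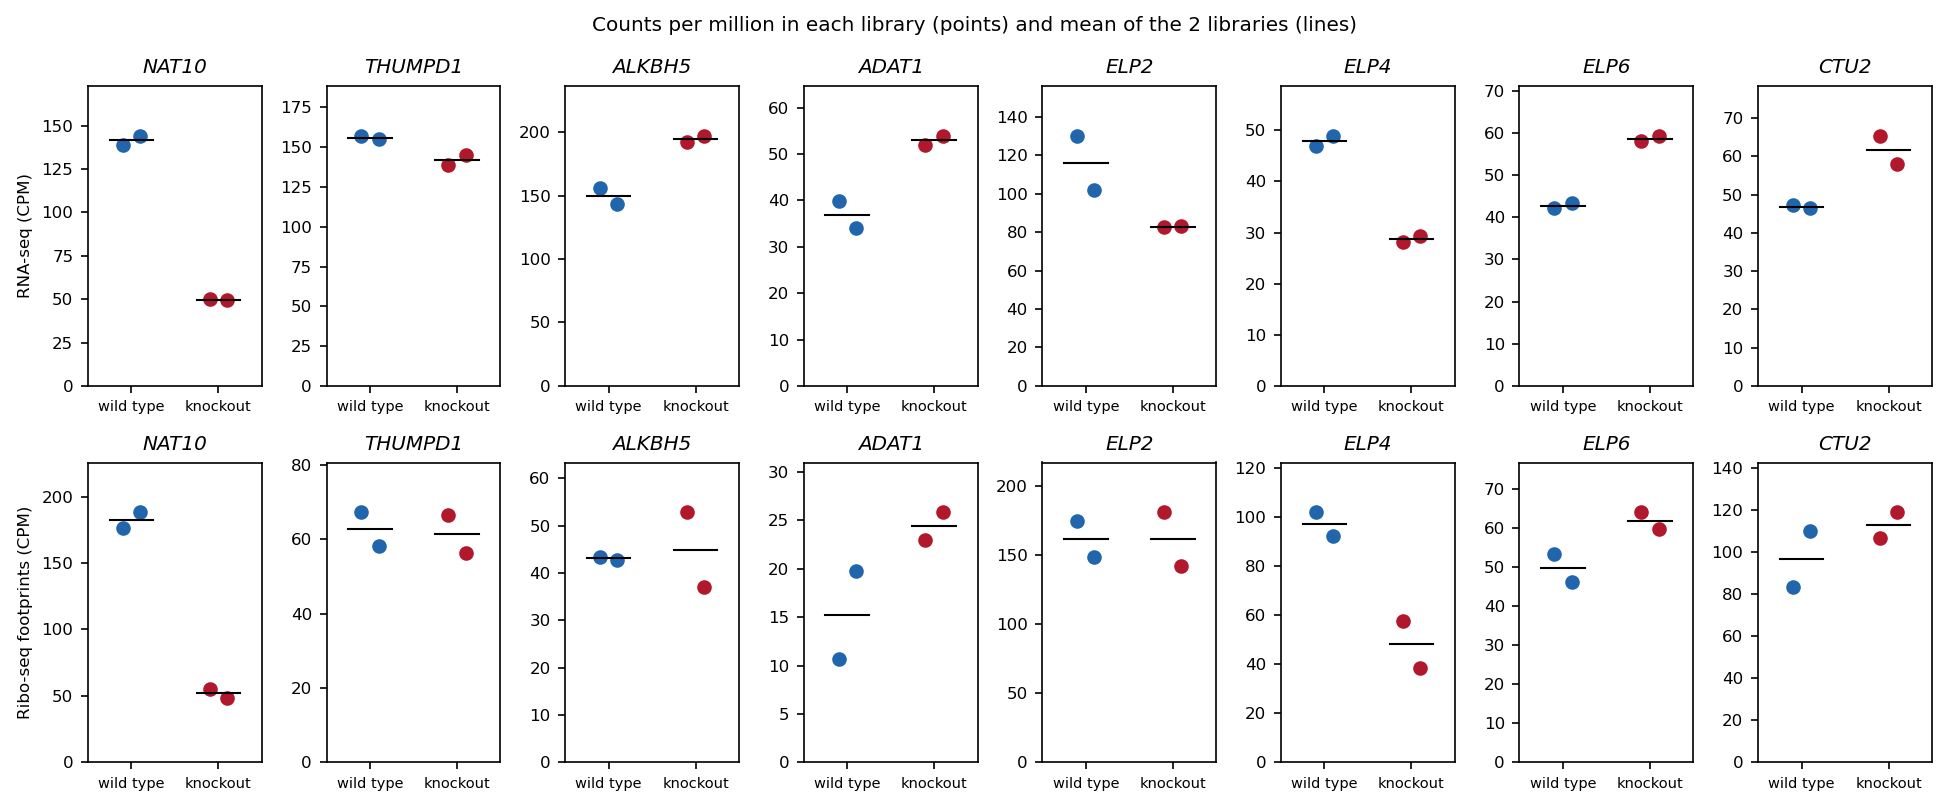
CPM in each library (points; blue, wild type; red, knockout; lines, mean of 2 libraries) for NAT10, THUMPD1 and the 6 genes that passed the test in RNA, with RNA-seq in the upper and Ribo-seq in the lower row and every axis starting at 0. NAT10 and ELP4 are lower in knockout in both rows, while ELP2 (82.8 and 83.0 against 130 and 102 CPM in RNA) overlaps between genotypes in footprints.

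Of the 18 m6A writers, erasers and YTH readers on the list, 1 passed the test in RNA, the eraser ALKBH5. METTL3, METTL5 and WTAP also passed, upward, when the knockout libraries were kept apart. In that setting 5476 of all 16040 tested genes passed, 2423 of them upward, and no test of the group was made. ALKBH5, a nuclear demethylase of m6A (ENSG00000091542.9, chromosome 17), was at 192 and 197 CPM in knockout RNA against 156 and 143 in wild type. Both knockout libraries lay above both wild type libraries, and ALKBH5 rose by 0.38 (SE 0.073, edgeR adjusted p = 0.0133), or 1.30-fold. Ribo-seq gave ALKBH5 52.8 and 37.0 CPM in knockout against 43.4 and 42.8 in wild type, which overlap, with a log2 fold change of 0.07 (SE 0.25). FTO, the other eraser, stood at 0.16 in RNA (SE 0.11) and -0.43 in footprints (SE 0.23), with libraries that did not overlap in either assay and lay on opposite sides.

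None of the 11 m6A writers was called in RNA, and their log2 fold changes ran from -0.17 (VIRMA, a scaffold of the writer complex) to 0.27 (METTL3). METTL3, the catalytic subunit, was at 30.8 and 31.5 CPM in knockout RNA against 26.9 and 24.9 in wild type, and at 65.6 and 51.5 against 46.7 and 39.5 in footprints. Its groups did not overlap in either assay, with changes of 0.27 (SE 0.12) and 0.43 (SE 0.24). METTL14, its partner, lay at -0.13 (SE 0.13). METTL5, which methylates 18S rRNA, was at 62.1 and 60.0 CPM in knockout RNA against 51.7 and 52.8 in wild type, and its footprints, 81.8 and 51.5 against 51.6 and 32.9 CPM, overlapped. Its changes were 0.22 (SE 0.09) and 0.65 (SE 0.28), neither called. ZC3H13, a nuclear anchor of the writer complex, was level in RNA at 43.9 and 41.2 CPM against 41.8 and 40.5, while its footprints were 52.0 and 43.5 CPM in knockout against 24.6 and 29.6 in wild type. The footprint change of ZC3H13, 0.82 (SE 0.26), had an edgeR adjusted p of 0.0948 and did not pass. RBM15, which guides the complex to RNA, was at 128 and 130 CPM in knockout RNA against 126 and 117 in wild type, and at 152 and 164 against 145 and 148 in footprints, with changes of 0.09 and 0.07.

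The 5 YTH-domain readers lay in RNA between -0.07 (YTHDC2) and 0.10 (YTHDC1), with SE up to 0.12, and in footprints they lay between -0.01 and 0.15. METTL1 and WDR4, the 2 subunits of the tRNA m7G methyltransferase, stood at -0.08 and 0.20 in RNA and at 0.25 and -0.33 in footprints. None of these 7 genes was called.

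None of the 6 genes for 5-methylcytosine (m5C) writers was called. NSUN2, which methylates many tRNAs, was at 110 and 110 CPM in knockout RNA against 101 and 102 in wild type, with footprints of 153 and 156 against 124 and 122. Its libraries did not overlap in either assay, with log2 fold changes of 0.11 (SE 0.074) and 0.29 (SE 0.16). NSUN3, the mitochondrial tRNA enzyme, was at 12.0 and 12.1 CPM against 8.66 and 10.3 in RNA and rested on 6 to 17 footprint counts per library (14.5 and 9.66 CPM against 6.56 and 7.68). The changes of NSUN3 were 0.34 (SE 0.19) and 0.80 (SE 0.49). NSUN4, the mitochondrial rRNA enzyme, was at 68.0 and 67.6 CPM against 70.0 and 68.7 in RNA and at 104 and 80.5 against 105 and 136 in footprints. The NSUN4 values lay just below wild type in RNA (-0.03, SE 0.076) and below it in footprints (-0.38, SE 0.20). TRDMT1 and NSUN6 marked the ends of the group in RNA, at -0.27 (SE 0.15) and 0.38 (SE 0.15).

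The 7 pseudouridine synthases all had RNA log2 fold changes above 0, from 0.05 (PUS10) to 0.25 (DKC1, SE 0.079), and none was called. DKC1 is the enzyme of box H/ACA ribonucleoproteins, and it stood at 182 and 185 CPM in knockout RNA against 164 and 145 in wild type, with no overlap. In footprints the group spread from -0.45 (PUS10, SE 0.52) to 0.71 (PUS3, SE 0.37). PUS3, a tRNA enzyme, was at 13.3 and 12.9 CPM against 12.7 and 10.8 in RNA and at 23.9 and 19.3 against 13.9 and 12.1 in footprints, on 11 to 28 counts per library.

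The 3 adenosine deaminases lay above wild type with no overlap in both assays, and 1 of them was called. Taken 1 assay at a time, 33.1% of all tested genes lay above wild type without overlap in RNA and 27.6% in footprints. In both assays at once, 35.6% had no overlap in the same direction, counting either direction. The called gene passed in RNA, where 5.17% of all tested genes were called higher. ADAT1, which makes inosine in the anticodon loop of an alanine tRNA (ENSG00000065457.10, chromosome 16), was at 52.0 and 53.9 CPM in knockout RNA against 39.9 and 34.0 in wild type. ADAT1 rose by 0.53 (SE 0.11, edgeR adjusted p = 0.0169), or 1.44-fold, the largest rise among the 59 genes. Its footprints, 23.0 and 25.8 CPM against 10.7 and 19.8, rested on 13 to 27 counts per library, and the change of 0.67 (SE 0.39) did not pass. ADAT2, the catalytic subunit of the wobble inosine enzyme, was at 46.6 and 43.0 CPM against 37.2 and 39.4 in RNA and at 31.5 and 30.6 against 20.5 and 23.0 in footprints. The RNA change of ADAT2 was 0.23 (SE 0.11), and that of its partner ADAT3, not on the list of 59, was 0.27 (SE 0.21). ADAR, which edits double-stranded RNA, was at 304 and 308 CPM against 289 and 275 in RNA and at 238 and 230 against 199 and 213 in footprints, with changes of 0.12 (SE 0.082) and 0.16 (SE 0.15).

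None of the 8 tRNA methyltransferase genes was called. TRMT11, the catalytic subunit of the m2G enzyme for position 10 of tRNA, came nearest, at 33.7 and 35.9 CPM in knockout RNA against 27.6 and 27.0 in wild type, with footprints of 98.0 and 98.2 against 63.9 and 70.2. It was above wild type in every knockout library, with changes of 0.35 (SE 0.11, edgeR adjusted p = 0.0767) and 0.52 (SE 0.20, edgeR adjusted p = 0.150). TRMT112, the activator that TRMT11 needs, stood at 0.14 (SE 0.085) in RNA and -0.08 in footprints. TRMT5, which makes 1-methylguanosine beside the anticodon, was at 24.8 and 22.6 CPM against 22.0 and 21.3 in RNA and at 36.6 and 30.6 against 20.5 and 27.4 in footprints. TRMT1, which makes dimethylguanosine, was level, at 83.1 and 82.9 CPM against 82.6 and 78.9 in RNA and at 130 and 122 against 120 and 122 in footprints, with changes of 0.04 (SE 0.072) and 0.03 (SE 0.17). Of the 3 other anticodon loop genes, FTSJ1, QTRT1 and QTRT2, none was called in RNA, where they lay at 0.17, 0.16 and 0.08. QTRT2, the partner of QTRT1 in placing queuosine, was at 27.4 and 25.8 CPM against 24.5 and 25.6 in RNA, while its footprints were 34.9 and 27.4 CPM in knockout against 18.0 and 14.3 in wild type. That footprint change, 0.93 (SE 0.33), was the highest fitted value among the 57 genes tested in footprints and did not pass (edgeR adjusted p = 0.124).

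In footprints 57 of the 59 genes had enough counts to test, all but TRMT10A and ALKBH8, and 1 fell (ELP4) while 0 rose, against 5.34% of all 8887 tested genes called (1.47% higher and 3.87% lower). Without adjustment, at p under 0.05, there were 6, ELP4, CTU1, ZC3H13, QTRT2, TRMT11 and METTL5, or 10.5% of those tested, against 20.9% of all genes. The median was 0.07 for these genes and 0.00 for all. Counts per library for the 59 genes ran from 2 to 438 in Ribo-seq and from 90 to 5782 in RNA-seq. The simulated test recovered 4% of footprint changes of 0.5 and 53% of changes of 1 on the log2 scale. That simulation changed 100 of 7005 genes at each size, fewer than were called in the data, so its recovery does not carry over. Of the 57 genes, 15 had knockout libraries above wild type in both assays and 3 had them below in both, or 18 in all, while 35.6% of all genes did so in the same direction in both. WTAP, FTO and WDR4 had non-overlapping libraries on opposite sides, above wild type in RNA and below it in footprints. The share of all genes on opposite sides was not counted, so this is not a result about these genes.

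**Figure D3:**
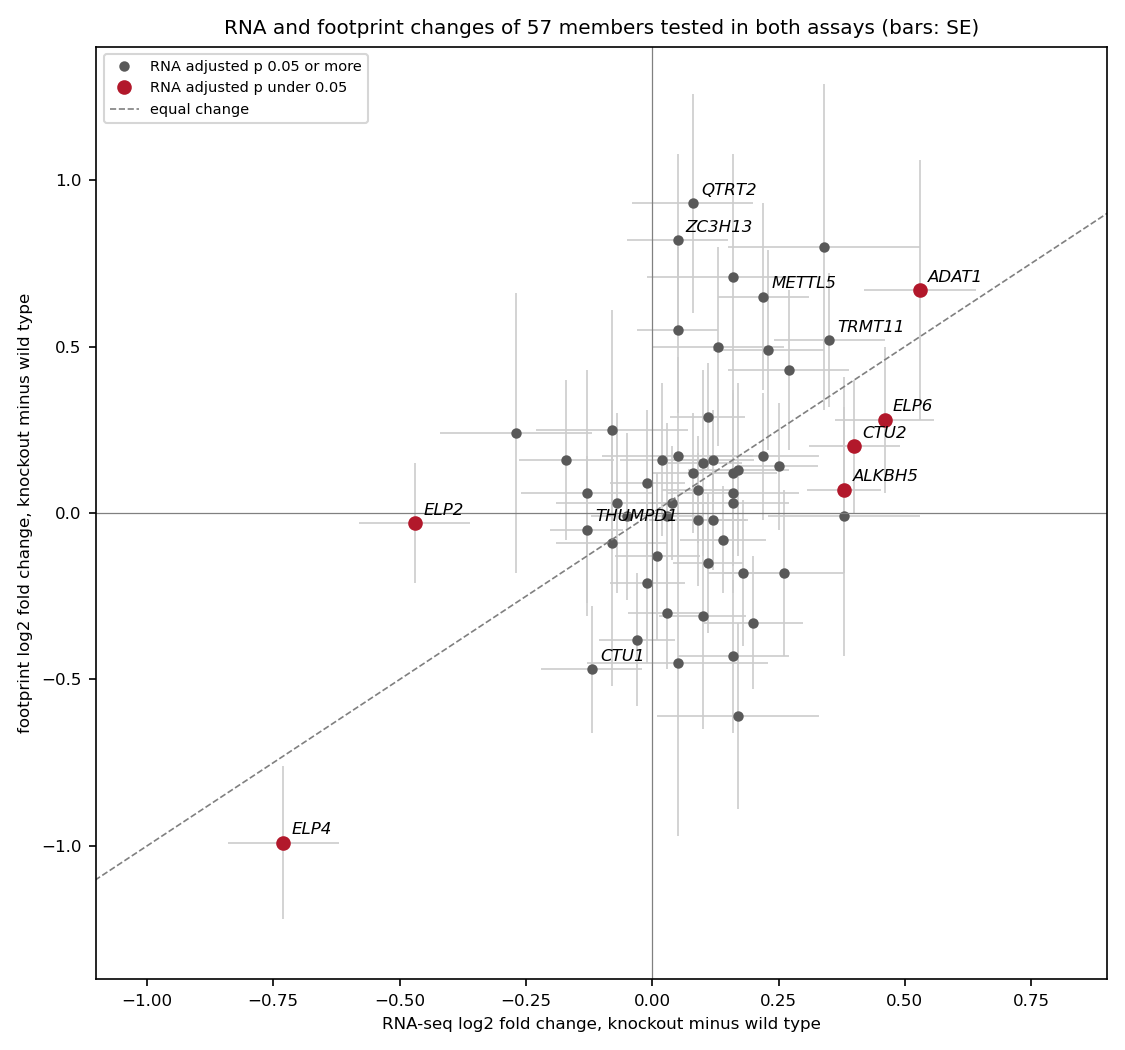
RNA-seq (x axis) and footprint (y axis) log2 fold changes, knockout minus wild type, of the 57 genes tested in both assays, with SE bars and a dashed line of equal change. ELP4 is low on both axes (-0.73 and -0.99), ELP2 is low in RNA (-0.47) and near 0 in footprints (-0.03), and ZC3H13 and QTRT2 sit high in footprints (0.82 and 0.93) at RNA changes of 0.05 and 0.08.

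Translational efficiency, the change of footprints relative to that of RNA in 1 model of both assays, was called for 0 of 57 genes by edgeR and for 0 by DESeq2, and for 1 of all 8821 tested genes by edgeR (0.0113%). At an unadjusted p under 0.05 there were 5 of the 57, or 8.77%, against 9.94% of all genes. These were QTRT2 (0.81, SE 0.32) and ZC3H13 (0.74, SE 0.25) upward and THUMPD2 (-0.83), FTO (-0.63) and WDR4 (-0.58) downward. ELP2, whose RNA fell while its footprints overlapped, had an efficiency change of 0.41 (SE 0.22, edgeR adjusted p = 0.561), and ELP4 one of -0.28 (SE 0.23). The median was -0.06 for the 57 genes and -0.05 for all genes.

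The genes around ELP4 on chromosome 11 were lower in RNA as well, a comparison made with earlier results of these data in view. All 20 of its nearest tested protein-coding neighbours, 10 on each side in the RefSeq order, had RNA log2 fold changes below 0, 11 of them fell and 0 rose, with a median of -0.55. ELP4 lies on the same arm as NAT10, and of the 13 tested genes between the pair 11 fell, with a median of -0.56. Among all tested genes 8.79% fell and 5.17% rose. The 10 neighbours on the NAT10 side are among the 13 genes between the pair, so these counts share genes. In footprints 12 of the 20 neighbours could be tested, and their median was -0.42. None of them was called (lowest edgeR adjusted p = 0.0531, for EIF3M). KIF18A (0.18), QSER1 (0.18) and HIPK3 (0.27) lay above 0 in footprints, and PAX6 was at -0.01. The lower level was thus not confined to ELP4 (-0.73 in RNA), and whether ELP4 fell by more than its segment was not tested. The 3 list genes on the other side of NAT10, TRMT112, ALKBH8 and PUS3, stood at 0.14, 0.20 and 0.16. PAX6, which overlaps ELP4, was at 20.1 CPM and fell by 0.51, and reads of the pair cannot be told apart.

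Neighbours of the other 5 called genes were counted in the same way. Around ALKBH5, ADAT1 and ELP2 none of 20 neighbours was called, with medians of -0.11, 0.06 and -0.08. Around ELP6, 2 of 20 fell and the median was -0.06, and around CTU2, 2 rose and 4 fell with a median of 0.01. Around THUMPD1, 7 of 20 fell and the median was -0.25, where 8.79% of all tested genes fell.

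**Figure D4:**
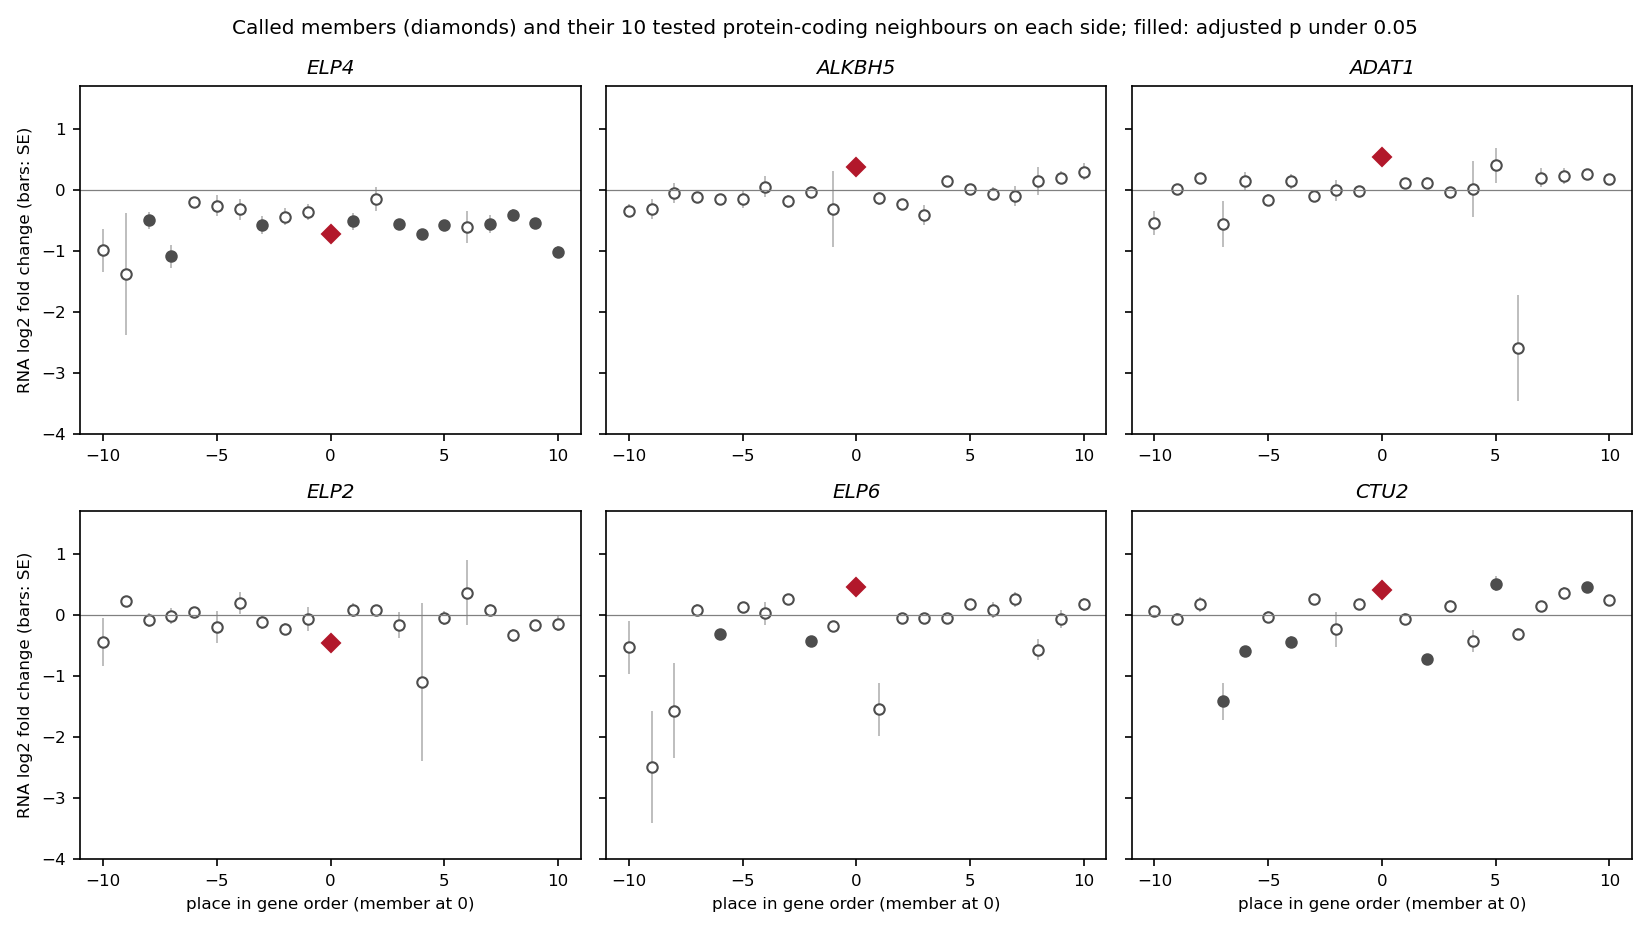
RNA log2 fold change with SE (y axis) of each called gene (red diamond, place 0) and of its 10 tested protein-coding neighbours on each side in gene order (circles; filled where the adjusted p was under 0.05). All 20 circles around ELP4 lie below 0, with a median of -0.55, while those around the other 5 genes scatter about medians from -0.11 to 0.06.

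Other genes of RNA modification were taken from 5 lists of 88 genes. In RNA 86 were tested, 9 rose and 2 fell, or 12.8% of them, against 14% of all genes (5.17% higher and 8.79% lower). In footprints and in efficiency 0 of 81 were called by edgeR, while 8 and 6 had an unadjusted p under 0.05, which is 9.88% and 7.41% of them against 20.9% and 9.94% of all genes. These shares, taken over both directions, lie below those of all genes. By direction, more of these genes rose than fell in RNA, whereas over all genes more fell than rose, and no test of this was made. Of 14 partners of the complexes above 4 rose, or 28.6%, against 5.17% of all genes. They were NOP10 (0.37, SE 0.085) and NHP2 (0.28, SE 0.073), which sit with DKC1 in the box H/ACA particle, HSD17B10 (0.30), which sits with TRMT10C in the mitochondrial methyltransferase, and DPH3 (0.45), an electron carrier for Elongator and diphthamide synthesis. Of 7 m6A-binding proteins outside the YTH family, IGF2BP2 rose (0.29, SE 0.081) and EIF3A fell (-0.55, SE 0.087). EIF3A was at 255 and 252 CPM in knockout RNA against 386 and 360 in wild type, and its footprint change was 0.06. Of 41 other tRNA enzymes the dihydrouridine synthases DUS1L (0.42) and DUS3L (0.39) rose and THG1L (-0.51), which adds the extra guanosine of histidine tRNA, fell. Of 18 rRNA and small nucleolar ribonucleoprotein genes NOP56 (0.31) and EMG1 (0.47) rose, and none of 8 cap and small RNA methyltransferases was called.

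SNORD13, the small nucleolar RNA that guides NAT10 on 18S rRNA, was singled out after its values were seen. It had 3648 and 3821 RNA-seq counts in knockout against 593 and 1818, or 202 and 203 CPM against 57.1 and 143. The wild type libraries differed from each other by more than the knockout libraries did from the nearer of them, and its log2 fold change of 1.00, with an SE of 0.39, did not pass (edgeR adjusted p = 0.135).

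Levels between genes were compared in wild type RNA only per length, as CPM per kilobase of the longest coding transcript named in the peak lists, which is a rough measure where shorter transcripts dominate. The value could be had for 57 of the 59 genes. TRMT112 was highest at 104 and 112 in the 2 libraries, and it overlaps ESRRA and PRDX5. DKC1 (53.1 and 47) and ALKBH5 (49.5 and 45.4) followed, with values whose ranges overlapped, and ADAR (43.1 and 41.1) came next. THUMPD1 was at 36.1 and 35.6. FTO (3.11 and 3.17), NSUN3 (1.35 and 1.60) and TRDMT1 (1.25 and 1.23) were lowest.

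Most of the genes had peaks with the ac4C antibody and with IgG alike. There is 1 list per genotype and antibody, so no test was made. The lists are named as merged, and which replicates went into each was not checked. In wild type 47 of the 59 genes had an antibody peak and 48 an IgG peak, against 50.6% and 51.4% of the 16119 gene symbols tested in RNA, and in knockout 52 and 51 did, against 64.9% and 62.7%. An antibody peak that touched no IgG peak of the same genotype was found on at least 1 transcript for 11 of the 59 genes in wild type, where 11% of all gene symbols had one, and for 36 in knockout, where 33.4% had one. The number of such genes was thus larger in the knockout, in lists that also hold more peaks over all genes (80709 against 45290 antibody peaks). By their sample numbers, the knockout acRIP-seq samples entered the series in a separate set from the wild type ones. Genotype and set therefore cannot be told apart in any comparison of the peak lists. The 11 wild type genes were ADAR, CTU2, ELP3, ELP4, ELP6, FTSJ1, METTL16, QTRT1, TRMT11, TRUB2 and VIRMA, and none of their separate peaks reached a fold of 4, while 10 genes had one in knockout, against 0.136% and 10.2% of all gene symbols. On the longest coding transcript alone the counts were 1 gene (TRUB2) in wild type and 18 in knockout, against 2.92% and 15.7% of all gene symbols.

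The heights of antibody and IgG peaks were close. The highest fold of an antibody peak on the longest coding transcript, as the authors' lists give it, was 0.998 times that of IgG at the median of 44 genes with both in wild type, from 0.77 (VIRMA) to 1.26 (YTHDF2), and antibody was higher for 21 and IgG for 23. In knockout the median ratio was 1.03 over 41 genes, from 0.55 (WTAP) to 2 (ELP6), with 22 and 19. THUMPD1 had peaks over 96.7% of its transcript with antibody and 97.6% with IgG in wild type, with highest folds of 6.86 and 8.51, and folds of 14.3 and 12.8 in knockout. ALKBH5 had highest folds of 12.1 and 12.2 in wild type and 16.9 and 13.2 in knockout. ELP4 had 1.82 and 2.08 in wild type and no peak on that transcript in knockout, and ADAT1 had no antibody peak there in either genotype.

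**Figure D5:**
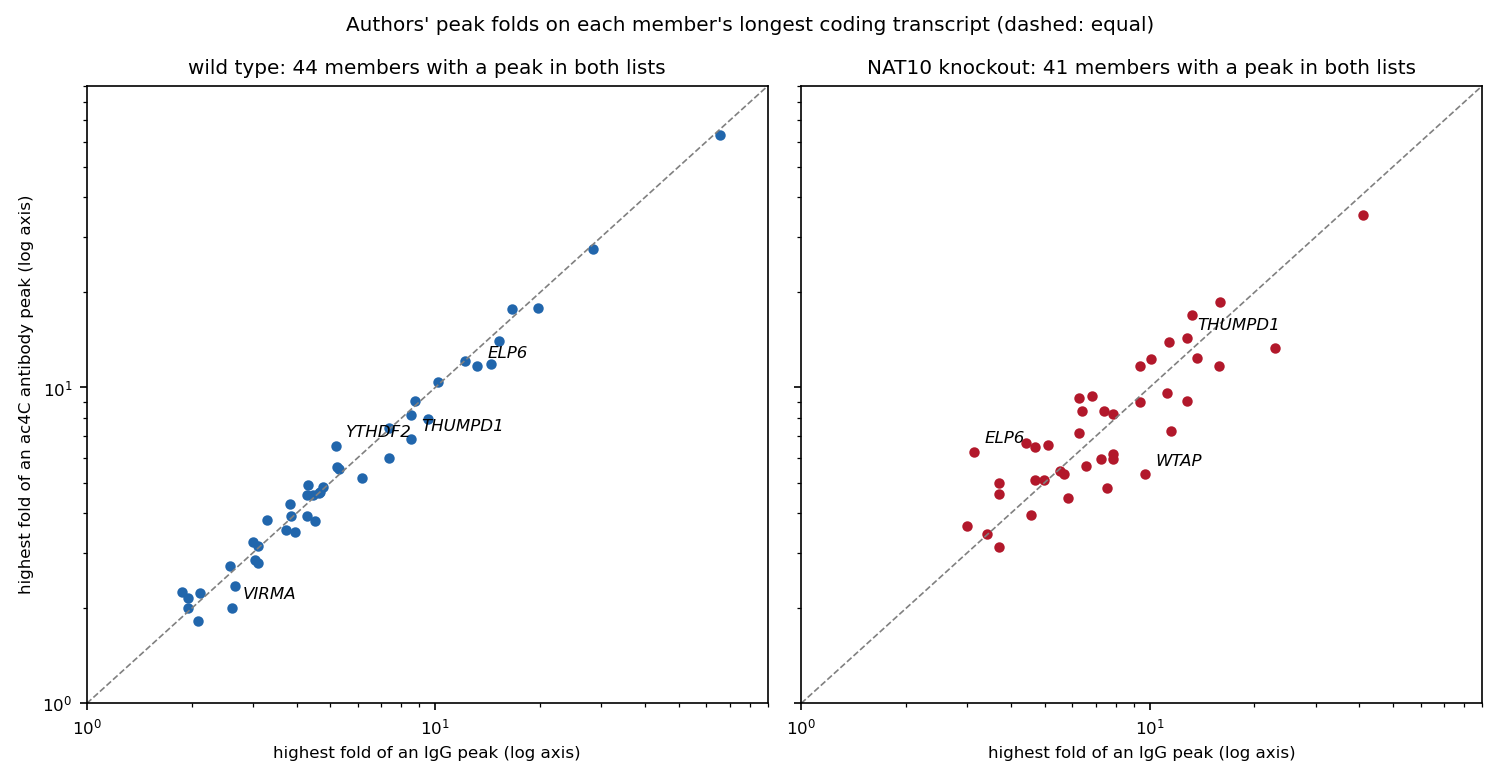
Highest fold of an IgG peak (x axis) and of an ac4C antibody peak (y axis) on the longest coding transcript of each gene, as given in the authors' peak lists, on log axes with a dashed line of equality, for wild type (44 genes) and knockout (41 genes). Points lie along the line in both panels, with median ratios of 0.998 and 1.03.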

How the data were processed

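RNA-seq and Ribo-seq of K562 cells came as deposited raw counts, with duplicate reads taken out beforehand per the file headers. Tools listed, without roles, in the submitters' processing notes are STAR, Bowtie2, featureCounts, MACS2, cutadapt, Trimmomatic, DESeq2, SAMtools, bedtools and ChIPseeker, with the build GRCh38.p13. The deposited peak lists hold positions on transcripts, with the authors' score, fold over input and −log10 q-value per summit. The deposited lists are named as merged, 1 per genotype and antibody.

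Pseudoautosomal Y copies (44 and 18) were dropped. CPM are counts over the library total. edgeR 4.0.16 (R 4.3.3; TMM, filterByExpr, quasi-likelihood F test, Benjamini-Hochberg over all tested genes, threshold 0.05) was fitted over all genes. The knockout RNA-seq pair was summed after a chi-square check (1.03 per degree of freedom, against 12.5 in wild type), so this fit takes the spread of knockout to equal that of wild type. Translational efficiency was the interaction of assay and genotype (3 residual degrees of freedom), over 8821 genes that passed the filter in each assay. Each fit was tested on simulated data. Peaks of 1 transcript were merged over summits, and 1 shared base counted as overlap. Alternatives were RLE scaling, DESeq2 1.42.0, no filter, knockout libraries kept apart, a replicate block, each library left out and other peak thresholds. Gene order and promoters came from RefSeq tables of GRCh38.p14, in which 51 of 59 genes had a promoter.

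The 59 genes, the lists and the rules were chosen with earlier results of these data known. Values in every library are given for THUMPD1, for genes called in any comparison or with an unadjusted p under 0.05 in 2 of them, and for genes whose libraries did not overlap in both assays. Pathway genes are named where called. Intervals and tests cover these libraries only.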

Additional observations from a re-analysis of the deposited data

How the results depend on the processing

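Depth and the small number of libraries limit what could be seen, with 2 to 438 footprint counts per library and gene and 1 residual degree of freedom in RNA. RLE scaling left 6 genes of the list called in RNA and 1 in footprints. In RNA, DESeq2 called 2 genes of the list and 1042 of all genes, keeping the knockout libraries apart 14 and 5476, and no low-count filter 11 and 3513 (1925 up and 1588 down). In footprints DESeq2 called 0 and 169, and no filter called 889 of all genes. In efficiency the count of all genes was 32 with DESeq2, 17 with knockout libraries kept apart, 81 without a filter and 0 with scaling within each assay. Leaving out 1 knockout library gave 5 to 6 genes of the list and 2077 to 2116 of all genes in RNA, and leaving out 1 wild type library with the knockout pair kept apart gave 22 to 23 and 6761 to 7003. In footprints and efficiency, leaving out 1 library gave 0 to 3 and 264 to 716 in footprints and 0 to 6 of all genes in efficiency. Genes with a separate antibody peak numbered 0 in wild type and 10 in knockout at a fold of at least 4, and 1 and 18 on the longest coding transcript. The cause of these differences was not tested.

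No label says that the replicate numbers pair the libraries: deviations of same-numbered libraries had a correlation of -0.03 in RNA and 0.29 in footprints over genes, and no label names a shared batch. With the replicate block, and the knockout RNA libraries kept apart, 12 genes of the list and 4983 of all genes were called in RNA. The block gave 6 and 1594 in footprints (CTU1, ELP4, METTL5, QTRT2, TRMT11 and ZC3H13), and 1 (ELP2, 0.51, adjusted p = 0.0485) and 319 in efficiency.

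The median efficiency change of all genes moved from -0.05 to 0.07 when the knockout RNA libraries were kept apart, a shift of 0.12, and signs of small efficiency changes turned with it. None of the values that changed sign had passed the test as reported. With knockout RNA libraries kept apart the efficiency of ELP3 was 0.09, of TRMT1 0.06, of ADAR 0.11, of RBM15 0.04 and of ELP5 0.02, and the replicate block gave 0.10, 0.06, 0.11, 0.04 and 0.02. RLE scaling gave 0.01 for ELP3 and 0.02 for ADAR, scaling within each assay 0.05 for ADAR, 0.04 for ELP3 and 0.00 for TRMT1, and no filter -0.03 for THUMPD1. NSUN4 in RNA was 0.01 with DESeq2 and 0.04 without a filter. Leaving out 1 library in turn gave footprint changes from -0.24 to 0.25 for ALKBH5, -0.01 to 0.06 for TRMT1, -0.19 to 0.06 for THUMPD1, -0.23 to 0.11 for ELP2 and -0.00 to 0.28 for ELP3. It gave efficiency changes from -0.02 to 0.15 for ADAR, -0.05 to 0.26 for ELP3, -0.09 to 0.11 for RBM15, -0.06 to 0.08 for TRMT1, -0.20 to 0.06 for ELP5, -0.56 to 0.01 for ELP4, -0.21 to 0.67 for ADAT1, -0.28 to 0.02 for ELP6 and -0.33 to 0.05 for CTU2. Of the single-gene values under alternatives, 746 kept direction and side of the threshold, 33 passed it, 7 lost it and 48 changed sign.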
